A study of Mus musculus with 7 samples.

Results

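The regions described here are sites bound by the transcription factor Runx3 in splenic CD8+ T cells (CD8-TC) of the mouse that carry the enhancer mark H3K4me1 and lie far from any gene start. Members were selected on both lists of called regions: a Runx3-bound region was taken when it shared 1 bp or more with an H3K4me1-marked region and its midpoint was 50 kb or more from the nearest transcription start site (TSS) of any annotated transcript. Of the 4934 Runx3-bound regions, 445 met the rule, and they are called distal regions below. Since this used the calls and the annotation, the width, mark and distance of the distal regions are given as descriptions without a test. Their DNA sequence played no part in the selection. The study had, however, already found RUNX and ETS motifs enriched in its Runx3-bound regions before they were tested here.

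The measurement was ChIP-seq, in which chromatin fragments bound by an antibody are sequenced. All 7 libraries came from freshly isolated, unstimulated CD8-TC of wild-type ICR mice, an outbred stock, purified on anti-CD8 beads. The label of each library gives 18 pooled animals, and the study calls its 2 repeats biological. There were 3 libraries from 2 immunoprecipitations with a polyclonal rabbit Runx3 serum, 2 with a monoclonal antibody to H3K4me1 and 2 with non-immune serum, which served as background, and no library came from cells lacking Runx3. Repeats were joined before regions were called and the lists give positions only, so neither the spread between repeats nor the read depth behind a region is known here, and intervals below cover counting error over regions only.

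Runx3 is a Runt-domain factor of cytotoxic lymphocytes that helps to silence Cd4 and to establish the killer program of CD8-TC, and it reads a short DNA word, called the RUNX motif here. The commonest form of the word is TGTGGT, a closely related form is TGTGGC, and forms with the dinucleotide CG are TGCGGT as well as the rarer TGCGGC. H3K4me1, the monomethylated form of lysine 4 on histone H3, is found on primed and active enhancers, DNA elements that can raise transcription from a distant promoter by looping to it. ETS proteins, a large family with several members in T cells, bind words built around GGAA and often occupy the same lymphocyte enhancers as RUNX proteins.

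The sequence under the midpoint of the distal regions is shown here by 11 stretches, since the motifs in it are what the comparisons below count. The first 5 are the 200 bp around the midpoint of the regions with the most RUNX motifs. Where 5 regions tied at 4 motifs, the widest of these were taken. The stretches are named by the nearest protein-coding gene and the distance to its TSS. They lie in mm9 on the plus strand at chr14:33912358-33912557 in an intron of Wdfy4, and in intergenic DNA at chr6:94710810-94711009, chr13:114979063-114979262, chr17:84403683-84403882 and chr1:158947722-158947921. Capitals mark every RUNX motif on either strand.
Wdfy4 75.9 kb: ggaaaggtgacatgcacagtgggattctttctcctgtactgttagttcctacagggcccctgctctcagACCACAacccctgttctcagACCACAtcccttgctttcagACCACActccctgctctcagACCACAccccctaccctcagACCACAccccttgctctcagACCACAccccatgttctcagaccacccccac
Lrig1 60.8 kb: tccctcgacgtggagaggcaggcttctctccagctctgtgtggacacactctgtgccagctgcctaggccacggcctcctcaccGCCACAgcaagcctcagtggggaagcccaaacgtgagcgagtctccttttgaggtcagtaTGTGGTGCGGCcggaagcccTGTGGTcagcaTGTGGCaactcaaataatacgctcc
Ndufs4 199.1 kb: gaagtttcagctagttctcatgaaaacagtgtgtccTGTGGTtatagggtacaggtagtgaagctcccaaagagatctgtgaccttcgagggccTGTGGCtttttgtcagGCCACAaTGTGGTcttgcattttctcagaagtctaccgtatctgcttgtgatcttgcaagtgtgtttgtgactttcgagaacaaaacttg
Haao 157.7 kb: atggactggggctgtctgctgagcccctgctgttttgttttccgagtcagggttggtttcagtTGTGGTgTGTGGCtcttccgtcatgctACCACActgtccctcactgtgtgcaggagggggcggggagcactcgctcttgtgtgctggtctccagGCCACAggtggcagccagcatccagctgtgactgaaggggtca
Ralgps2 78.1 kb: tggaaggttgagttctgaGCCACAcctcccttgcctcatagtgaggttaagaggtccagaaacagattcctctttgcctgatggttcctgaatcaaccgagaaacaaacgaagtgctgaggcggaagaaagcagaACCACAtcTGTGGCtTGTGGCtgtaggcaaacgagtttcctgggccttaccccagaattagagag

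The region in Wdfy4, which encodes a protein needed for cross-presentation by dendritic cells, held 6 copies of a single word, all read on the minus strand and each starting 20 bp after the last, in the form of a tandem repeat. The other 4 regions had no such regular spacing. The region near Lrig1 carried 5 motifs of 3 different words, of which 1 pair shared a base. The other 3 carried 4 motifs each, with starts between 7 and 117 bp apart.

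The next 6 stretches come from the domains of genes with known roles in T cells, and show the distal region with a RUNX motif next to an ETS motif that was nearest to the TSS of each gene. They are 78 to 80 bp around the closest pair of motifs, again on the plus strand of mm9, at chr3:130640048-130640127, chr9:32815478-32815557, chr3:52200428-52200507, chr9:116032424-116032503, chr10:28236102-28236181 and chr10:118036829-118036906. Capitals mark that pair, the ETS word being AGGAAA or AGGAAG, or one of these with C as its first base.
Lef1 173.3 kb: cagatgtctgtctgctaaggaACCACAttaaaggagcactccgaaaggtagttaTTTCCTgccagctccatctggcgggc
Ets1 371.8 kb: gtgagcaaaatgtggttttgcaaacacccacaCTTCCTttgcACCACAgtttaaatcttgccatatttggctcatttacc
Foxo1 128.2 kb: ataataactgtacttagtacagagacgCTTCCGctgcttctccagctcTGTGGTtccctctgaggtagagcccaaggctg
Tgfbr2 51.9 kb: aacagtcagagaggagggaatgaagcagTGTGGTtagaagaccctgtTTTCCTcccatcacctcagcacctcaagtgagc
Themis 152.0 kb: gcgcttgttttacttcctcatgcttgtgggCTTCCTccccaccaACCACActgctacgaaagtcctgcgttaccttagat
Ifng 158.7 kb: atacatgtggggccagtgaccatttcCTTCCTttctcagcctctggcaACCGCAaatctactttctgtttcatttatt

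Between the motifs of a pair lay 4 bp in the domain of Ets1, 8 bp at Themis, 13 bp at Tgfbr2, 15 bp at Foxo1, 16 bp at Ifng and 27 bp at Lef1. The word TGTGGT was the RUNX motif of the pair except at Ifng, where it was TGCGGT. No distal region in the domains of Il6st and S1pr1 had such a pair within 50 bp.

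To see how common these motifs were, the central 200 bp of every distal region was compared with windows of the same length 5 kb to either side. The tests did not pair a region with its own flanks. A RUNX motif was present in 344 of the 445 distal regions, or 77.3% (95% Wilson interval 73.2 to 81.0), and in 273 of 889 flanking windows, or 30.7% (27.8 to 33.8). The odds ratio was 7.69 (95% interval 5.86 to 10.1, two-sided Fisher's exact test, p = 5.21e-60, adjusted exact p = 6.78e-59 over 13 motif families). Over all 4934 Runx3-bound regions the share was 66.0%, and over 7453 H3K4me1-marked regions without Runx3, also 50 kb or more from a TSS, it was 33.6%, close to the flanks. In the whole called region, whose median width was 902 bp, 424 distal regions or 95.3% held at least 1 RUNX motif.

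Most distal regions with a motif had few of them. There was 1 RUNX motif in the central 200 bp of 179 regions, 2 in 119, 3 in 39, and 4 or more in the 7 remaining, while 101 had none there. The motif nearest to the midpoint was a median of 29 bp away (quartiles 13 and 55 bp) in the 344 regions that had one. The density was 6.44 RUNX motifs per kb in the central 200 bp against 1.61 per kb at 2 to 2.5 kb from the midpoint, a ratio of 4.01. For ETS motifs the density was 5.89 per kb in the centre and 3.40 per kb outside, a ratio of 1.73.

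**Figure D1:**
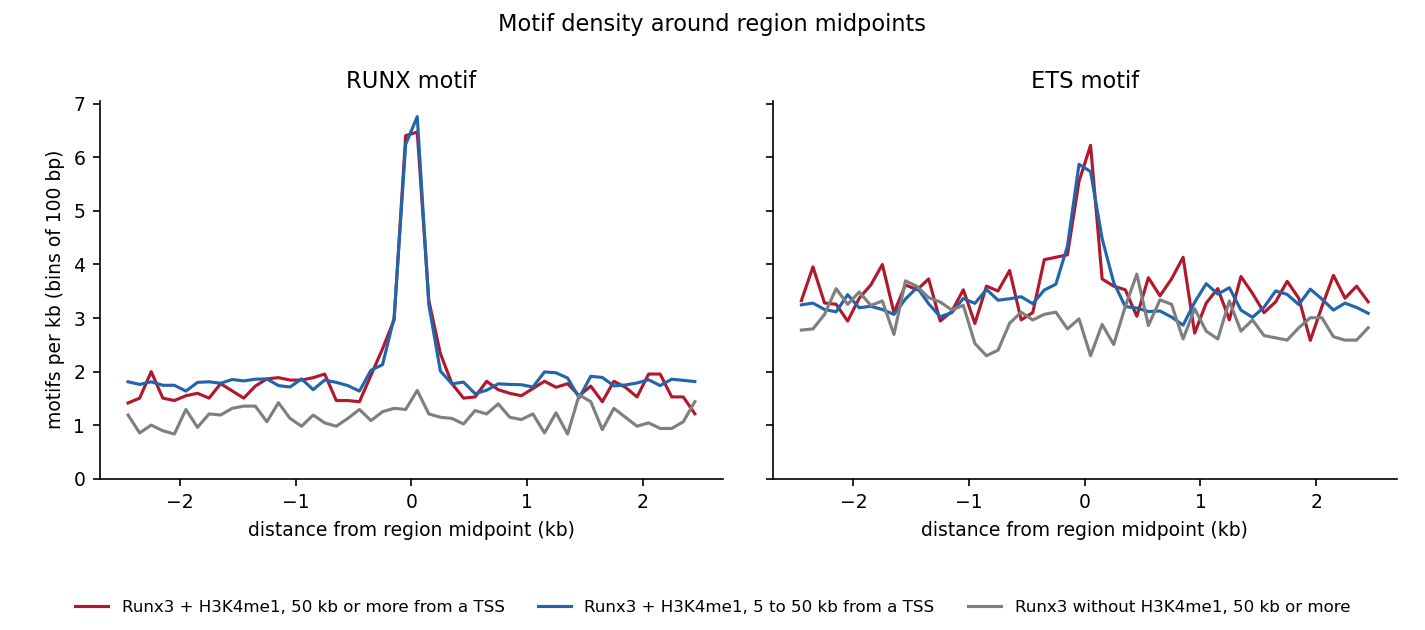
RUNX motifs (left) and ETS motifs (right) per kb, in bins of 100 bp, against the distance in kb from the region midpoint, for the 445 distal regions (red), the 1845 marked regions 5 to 50 kb from a TSS (blue) and the 479 unmarked regions 50 kb or more from a TSS (grey). The red and blue lines peak at the midpoint with central RUNX densities of 6.44 and 6.50 per kb, and the grey line has 1.47 per kb there.

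All 4 words of the RUNX motif were more frequent in distal regions than in their flanks. TGTGGT was found in 59.6% of distal regions and 16.6% of flanks (odds ratio 7.37, adjusted exact p = 3.01e-55, Fisher's exact test). TGTGGC was found in 28.5% and 13.8%, TGCGGT in 9.21% and 1.57%, and TGCGGC in 2.92% and 1.12%, with adjusted p-values of 4.26e-10, 4.26e-10 and 0.0243. Over all Runx3-bound regions the shares were 46.6%, 22.4%, 10.7% and 5.47% in the same order. TGTGGT was thus the commonest word in distal regions, and the 2 words that contain the dinucleotide CG were the rarest.

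Of 13 motif families, 6 differed from the flanks and all 6 were more frequent in the distal regions. Beside RUNX these were ETS, TCF/LEF, the family of Tcf7 and Lef1 that acts in naive and memory T cells, E-protein, IRF, the interferon regulatory factors, and SP/KLF, a family that binds GC-rich DNA. ETS motifs were in 72.4% of distal regions and 45.0% of flanks (odds ratio 3.20, 2.49 to 4.13, adjusted exact p = 6.89e-21). TCF/LEF motifs, searched as CTTTGA on both strands, were in 24.5% and 17.0% (odds ratio 1.59, adjusted exact p = 0.00328). E-protein motifs, CAGCTG or CAGGTG, were in 27.4% and 19.5% (odds ratio 1.56, adjusted exact p = 0.00328).

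The 2 remaining families were rarer. SP/KLF motifs, GGGCGG, were in 4.94% of distal regions against 1.12% of flanks (odds ratio 4.57, adjusted exact p = 0.000168), and IRF motifs in 4.72% against 2.02% (odds ratio 2.40, adjusted exact p = 0.0193). Over all Runx3-bound regions the shares were 63.8% for ETS, 18.8% for TCF/LEF, 23.1% for E-protein, 9.04% for SP/KLF and 4.07% for IRF. RUNX and ETS passed under all 11 alternatives, TCF/LEF under 10, SP/KLF under 9, E-protein under 8 and IRF under 6. With 1 region per group of neighbouring regions, TCF/LEF (adjusted exact p = 0.0844), E-protein (0.104) and IRF (0.318) no longer passed. At 40 to 60% GC E-protein did not pass (adjusted exact p = 0.166), and against windows 2 or 10 kb away neither SP/KLF (0.0914 and 0.0764) nor IRF (0.149 and 0.131) did. The other 7 families did not pass. NFAT motifs, searched as TGGAAA, were in 15.5% of distal regions and 18.9% of flanks, and GATA motifs, searched as AGATAA and the same word starting with T, were in 16.9% and 20.7%. AP-1 motifs, the 7-base word TGACTCA of Fos and Jun proteins, were in 5.17% and 3.49%. T-box motifs, searched as GGTGTGA, the word of Tbx21 and Eomes, were in 3.37% and 2.59%. STAT motifs, searched as TTCNNNGAA, were in 6.29% and 7.99%, CTCF motifs in 2.70% and 1.80%, and NF-kB motifs in 0.225% and 0.562%. Over all Runx3-bound regions these 7 shares were, in the order given, 15.8%, 18.5%, 4.58%, 3.38%, 6.73%, 3.85% and 0.709%. Words of different families can overlap, as the ETS, NFAT and IRF words all hold GAAA in some of their forms.

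**Figure D2:**
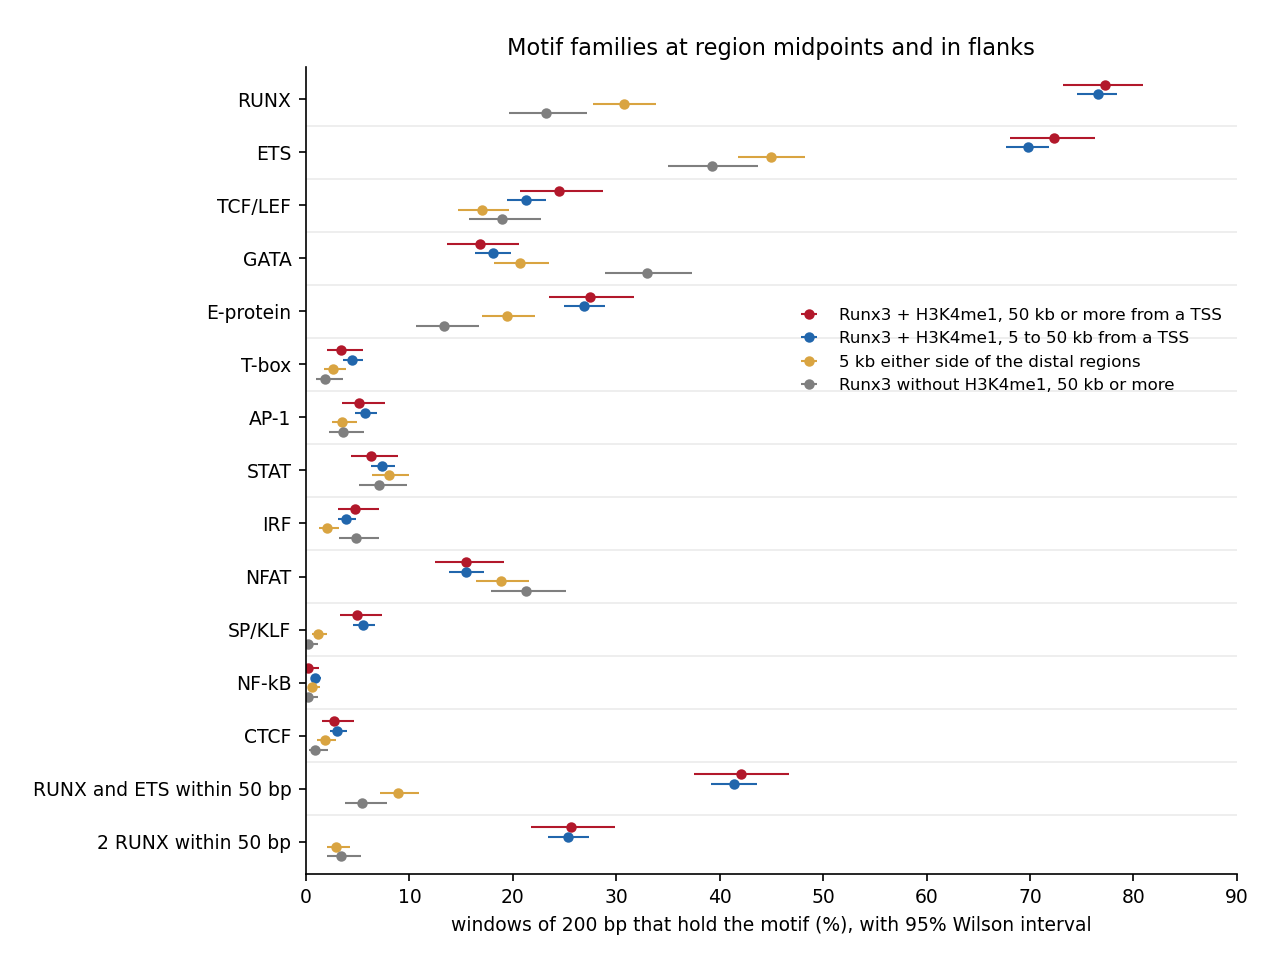
Percent of windows of 200 bp with each motif (points) and the 95% Wilson interval (bars), for the 445 distal regions (red), 1845 marked regions 5 to 50 kb from a TSS (blue), 889 flanking windows (gold) and 479 unmarked distal regions (grey). For RUNX the red and blue points sit at 77.3% and 76.6%, and the gold and grey points at 30.7% and 23.2%.

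Pairs of RUNX and ETS motifs near each other were also counted. A RUNX and an ETS motif that did not overlap and were at most 50 bp apart were found in 187 distal regions, or 42.0%, and in 8.89% of flanks (odds ratio 7.43, 5.46 to 10.1, Fisher's exact test, p = 5.69e-44). Over all Runx3-bound regions the share was 33.7%, and over the same H3K4me1-marked regions without Runx3 it was 12.1%. At a gap of 10 bp or less there were 77 distal regions, or 17.3%, and 24 flanking windows, or 2.70%. Each motif alone was also more frequent in the distal regions, and the shares of pairs were not adjusted for that.

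The order and strand of these close pairs varied. Read on the strand of the RUNX motif, the ETS motif was upstream on the same strand in 22 of the 77 close pairs, upstream on the opposite strand in 23, downstream on the opposite strand in 21 and downstream on the same strand in 11. A pair of RUNX motifs at most 50 bp apart was found in 25.6% of distal regions and 2.92% of flanks (odds ratio 11.4, adjusted exact p = 4.16e-35), beside 19.98% of all Runx3-bound regions and 3.80% of the H3K4me1-marked regions without Runx3. RUNX next to AP-1 was found in 2.25% of distal regions and 0.562% of flanks (odds ratio 4.06, adjusted exact p = 0.0104), which comes from 10 regions and 5 windows. Its share was 1.95% over all Runx3-bound regions and 0.899% over the H3K4me1-marked ones without Runx3, so that the distal share was near that of Runx3-bound regions in general.

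Words of 6 bases were also counted without a motif list. Of all 2080 words of 6 bases, with a word and its reverse complement counted once, 100 (4.81%) were more frequent in distal regions than in flanks and 100 (4.81%) less frequent at an adjusted p under 0.05. TGTGGT came first, and GTGGTT, which shares 5 of its bases, was second, at 50.6% of distal regions and 10.7% of flanks (adjusted exact p = 1.16e-52). The ETS word AGGAAG was the highest that was not RUNX-like, at 48.3% and 23.6% (adjusted exact p = 1.19e-16). Among the 20 words with the lowest p that were more frequent in distal regions, 3 were RUNX words, 7 others shared 5 bases with a RUNX word, and 3 held GGAA.

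The second question was whether the distal regions differ in sequence from regions of the same kind nearer to genes, the 1845 Runx3-bound and H3K4me1-marked regions 5 to 50 kb from a TSS. A RUNX motif was in 77.3% of the distal and 76.6% of the nearer regions (odds ratio 1.04, 95% interval 0.810 to 1.35, Fisher's exact test, p = 0.803). RUNX next to ETS was in 42.0% and 41.4% (odds ratio 1.03, 0.828 to 1.27, exact p = 0.83). Neither difference was detectable with these numbers of regions, and the intervals give the sizes that remain possible.

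The same held for each other motif tested. None of the 13 families passed at an adjusted p under 0.05, and none had an unadjusted p under 0.05, the lowest being TCF/LEF at 24.5% of distal and 21.2% of nearer regions (odds ratio 1.20, 0.933 to 1.54, exact p = 0.142). The 4 RUNX words had odds ratios from 0.682 to 1.07, all with adjusted p of 0.904 or more. TGCGGC, the rarest, was in 2.92% and 4.23% (odds ratio 0.682, 0.344 to 1.25).

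Of the 2080 words of 6 bases, 0 (0%) were more and 0 (0%) less frequent in distal than in nearer regions at an adjusted p under 0.05 by Fisher's exact test, and 112 had an unadjusted p under 0.05. The word with the lowest p was ACAATG, at 14.8% and 8.29% (exact p = 6.78e-05, adjusted exact p = 0.141). The count was 0 as well in windows of 100 bp and of 400 bp and in windows with a GC content of 40 to 60%, alternatives chosen after seeing the data.

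Runx3-bound regions beyond the same limit but without the mark differed in motif content. They lay farther out, with a median distance of 156635 bp from a TSS against 81253 bp and 69.5% at 100 kb or more against 38.4%. The 479 Runx3-bound regions 50 kb or more from a TSS that shared no base with H3K4me1 had a RUNX motif in 23.2% of their central windows, below the 30.7% in the flanks of the distal regions (odds ratio of distal to unmarked 11.3, 8.21 to 15.5, Fisher's exact test, p = 1.24e-63). In windows with a GC content of 40 to 60% the unmarked and flanking shares were 34.3% and 35.3%, so unmarked regions were hardly below the flanks there. In the whole region the share with a RUNX motif was 57.4% for unmarked regions, against 95.3% for distal regions. RUNX next to ETS was in 5.43% of unmarked regions (odds ratio 12.6, adjusted exact p = 1.9e-42).

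The 2 sets also differed in base composition, with a median GC content of 46% in distal and 36.5% in unmarked regions. Of the 2080 words, 453 (21.8%) were more and 335 (16.1%) less frequent in distal regions, and 3 of the 8 with the lowest p consisted of A and T only. The first of these, ATTTTA, was in 11.0% of distal and 36.5% of unmarked regions. Windows of 40 to 60% GC left 397 of the distal but only 137 of the 479 unmarked regions. In these the odds ratio of the RUNX motif was 7.03, and 18 words passed instead of 788, with fewer windows to test. GATA motifs, which are rich in A and T, were in 16.9% of distal and 33.0% of unmarked regions (adjusted exact p = 7.19e-08), a call lost at 40 to 60% GC, where the shares were 15.1% and 22.6% (adjusted exact p = 0.126). E-protein motifs were in 27.4% and 13.4% (adjusted exact p = 3.87e-07), and in 28.7% and 16.1% at 40 to 60% GC (adjusted exact p = 0.0133).

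Motif content was also compared within the distal regions, by position and shape. A RUNX motif was in 78.2% of the 197 regions 50 to 75 kb from a TSS, 77.9% of 77 at 75 to 100 kb, 71.2% of 132 at 100 to 200 kb and 92.3% of 39 beyond 200 kb. Regions inside a gene had it in 81.4% of 140 cases and intergenic ones in 75.4% of 305 (odds ratio 1.43, 0.849 to 2.46, adjusted exact p = 0.434). It was in 80.4% of the 219 regions wider than the median and 74.3% of the 226 others (odds ratio 1.41, 0.882 to 2.27, adjusted exact p = 0.426), and in 76.0% of 171 regions at 100 kb or more against 78.1% of 274 nearer ones (odds ratio 0.889, 0.552 to 1.44, adjusted exact p = 0.781). For RUNX next to ETS the contrast with the lowest p was between regions with and without a neighbour, at 35.8% of 179 and 46.2% of 266 (odds ratio 0.647, 0.430 to 0.972, exact p = 0.0313, adjusted exact p = 0.376). None of 12 such Fisher's exact tests, over 6 ways to divide the regions and both motif measures, passed after adjustment, and 1 had an unadjusted p under 0.05.

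The distal regions ranged from 380 to 2058 bp in width with a median of 902 bp, against 888 bp in nearer and 723 bp in unmarked regions. Their distance from the nearest TSS ranged from 50051 to 718495 bp with a median of 81253 bp. At 100 kb or more there were 171 regions, at 200 kb or more 39 and at 500 kb or more 2. The quartiles were 61264 and 127944 bp.

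Regions on either side of the limit are given as a description. The 3 regions just inside were at 50051 bp (near Tmem26), 50099 bp (Cmya5) and 50150 bp (Stim1) and had 1, 0 and 2 RUNX motifs. The 3 marked regions just outside were at 49944 bp (Cyb5r2), 49827 bp (Scn10a) and 49748 bp (SNORA79) and had 0, 2 and 2.

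The 5 widest distal regions are named as single cases and do not stand for wide regions as a whole, of which 80.4% had a RUNX motif. They lay 130264 bp from Bcat1, an enzyme of branched amino acid breakdown (chr6:144850071-144852128, 2058 bp), 169897 bp upstream of Tnfaip3, an inhibitor of NF-kB signalling (chr10:18904354-18906367, 2014 bp), 75393 bp upstream of Sp4 (chr12:119614340-119616273, 1934 bp), in an intron of Asap1 (chr15:64036805-64038684, 1880 bp) and 151061 bp from Klf5 (chr14:99848144-99849799, 1656 bp). The region in Asap1 had 1 motif in its central 200 bp and the other 4 had 0.

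The 5 regions farthest from a TSS were all intergenic. The farthest, chr12:94117956-94118574, was 718495 bp from the nearest TSS and had no RUNX motif in its centre. A pair on chromosome 9 lay 508973 and 443658 bp from one, upstream of the neuronal adhesion gene Cntn5, with 3 and 2 motifs. The fourth, chr13:83213079-83213721, lay 429633 bp upstream of Mef2c, a factor of muscle and lymphocyte development, with 1 motif. The fifth, upstream of Sall3, was 403251 bp from a TSS and had 3.

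Most distal regions were intergenic, 305 of 445 or 68.5%, while 138 had their midpoint in an intron and 2 in an exon. Of the nearer regions 43.3% were intergenic. Relative to the nearest protein-coding TSS, 224 distal regions or 50.3% were upstream. For 122 regions or 27.4% the nearest TSS belonged to a noncoding gene.

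The mark mostly covered the distal regions. In 415 of 445 the midpoint itself was marked, in 426 over 50% of the bases were, and in 13 the midpoint fell in a gap between H3K4me1 regions. A single H3K4me1 region overlapped in 384 cases, and its width, summed where there were several, had a median of 2610 bp (397 to 24265 bp), against 3136 bp for nearer regions. Within 25 kb there was a median of 5 H3K4me1 regions, 7 around nearer regions and 0 around unmarked ones, which is in part what the selection on the mark requires.

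The regions were spread unevenly over the chromosomes. Chromosome 10 held 49, chromosome 9 held 38, and chromosomes 1 and 3 held 37 each, but chromosome 11 held none of its 334 Runx3-bound regions as a distal region. Chromosomes 2 and 4 held 12 and 10, and chromosome X held 2. The 4 chromosomes where under 5% of the Runx3-bound regions were distal, 2, 4, 11 and X, were picked out after their values were seen. They had 24 distal regions of 1105 Runx3-bound regions, or 2.17%, and the other chromosomes 421 of 3829, or 11.0%.

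The annotation was also uneven. It placed 51.0 TSSs per Mb on those 4 chromosomes and 31.5 on the others, and left 25.4% and 43.0% of their length 50 kb or more from a TSS. With TSSs of protein-coding transcripts only, 50.7% and 54.5% of the length qualified, and 749 regions were distal, 117 on the 4 chromosomes (10.6% of their Runx3-bound regions) and 632 on the others (16.5%). Chromosome 11 then had 18 and chromosome X 7. The number of distal regions on a chromosome thus moved with the annotation used.

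**Figure D3:**
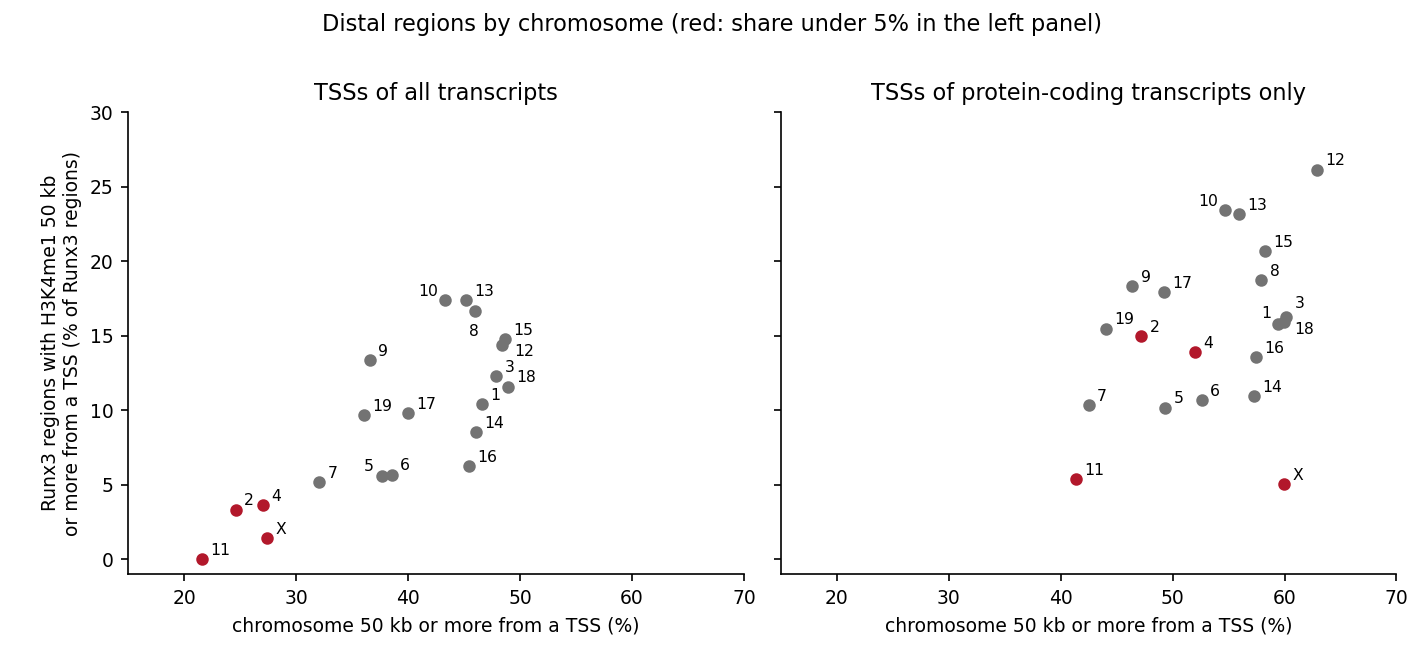
Percent of each chromosome's Runx3-bound regions that carried H3K4me1 and lay 50 kb or more from a TSS, against the percent of the chromosome's length at that distance, with TSSs of all transcripts (left) and of protein-coding transcripts only (right). Each point is a chromosome. The red points are chromosomes 2, 4, 11 and X, which have 0 to 3.66% on the left and 5.07 to 15.0% on the right.

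Many distal regions had a close neighbour. Chained by gaps of 50 kb or less, they formed 341 groups, of which 266 had a single region, 56 had 2, 12 had 3, 4 had 4 and 3 had 5, so that 179 regions had at least 1 neighbour in their group. Another Runx3-bound region of any kind was within 25 kb of 35.1% of distal, 41.8% of nearer and 3.55% of unmarked regions. Regions of a group share their surroundings and are not independent of each other.

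The 3 groups of 5 show what such clusters were like. On chromosome 9, 5 regions spanned 42772 bp (chr9:61513647-61556418) between Rplp1, a ribosomal protein gene, and Tle3, which encodes a Groucho co-repressor that RUNX proteins can recruit. They were 884 to 1097 bp wide, 206475 to 248245 bp from the TSS of Rplp1, and all 5 had 1 to 3 RUNX motifs and 1 or 2 ETS motifs. A second group on the same chromosome spanned 55932 bp (chr9:116238013-116293944), 154024 to 209078 bp upstream of Tgfbr2. The third spanned 81310 bp on chromosome 15 (chr15:97208405-97289714) upstream of Amigo2.

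To relate the regions to genes, each protein-coding gene was given a domain that reached from its TSS to the neighbouring genes but by at most 1 Mb. At least 1 distal region fell in the domain of 535 of 22350 genes (2.39%), and 174 genes had 2 or more. Such regions are far from genes by selection, so the genes that can have one have long domains, with a median of 547485 bp against 89534.5 bp for all. A region usually counted for the genes on both sides, as 402 of 445 lay in the domains of 2 genes, and which gene it acts on was not measured.

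The genes with the most distal regions were Gm10293 with 8, Btg1 with 7, and 6 genes with 6 each, which were Amigo2, Rpap3, Lef1, Ankrd55, Ets1 and Tgfbr2. Gm10293 is a gene model between Foxo1 and Cog6 that shared 5 of its regions with Foxo1 and 3 with Cog6. Btg1 encodes an anti-proliferative factor of quiescent lymphocytes. It had 2 regions upstream, 216 and 246 kb away, and 5 downstream, 81.0 to 170 kb away, of which 3 lay under a single H3K4me1 region of 8018 bp. Of these 7, 6 had a RUNX motif and 3 had one next to ETS.

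Amigo2, a cell adhesion gene, and Rpap3, a factor of RNA polymerase assembly, had the same 6 regions between them, 64.1 to 211 kb upstream of Amigo2 and 247 to 394 kb downstream of Rpap3. They were 583 to 1562 bp wide, and 2 lay in introns of Fam113b. A RUNX motif was in 4 of the 6 and RUNX next to ETS in 2.

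Lists of genes with known roles were read against the 2.39% of all genes. Of 36 T-lineage and memory transcription factors, 14 (38.9%) had a distal region in their domain. Of 21 cytokine receptors 4 (19.0%) did, of 14 effector molecules 2 (14.3%), of 19 homing and adhesion genes 2 (10.5%) and of 24 T-cell receptor signalling genes 1 (4.17%). None of 9 inhibitory receptors, 11 B-cell genes or 14 neuronal genes had one.

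Domain length differed between these lists, so it was set beside the counts. Among genes with domains of 200 to 500 kb, 9 of 29 genes of the 6 T-cell lists had a distal region and 5.79% of all genes did. At 500 to 1000 kb the numbers were 6 of 13 and 14.0%, and at 1000 kb or more 8 of 10 and 10.7%. Of 12 B-cell and neuronal genes in the longest class, 0 had one. In domains under 200 kb none of the T-cell list genes had one, and 33 of all genes did. The median domain was 47361 bp for the B-cell list and 1.78e+06 bp for the neuronal list. A domain under 50 kb cannot hold a distal region, and 6 of the B-cell and neuronal genes had one that short. The absence of distal regions at most B-cell genes was thus fixed by the distance rule. The length classes together hold an entry more than the T-cell lists have genes, so a list gene without a distal region was counted again. All numbers here are counts without a test, since the lists were drawn up with results of these data known and neighbouring genes share regions.

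**Figure D4:**
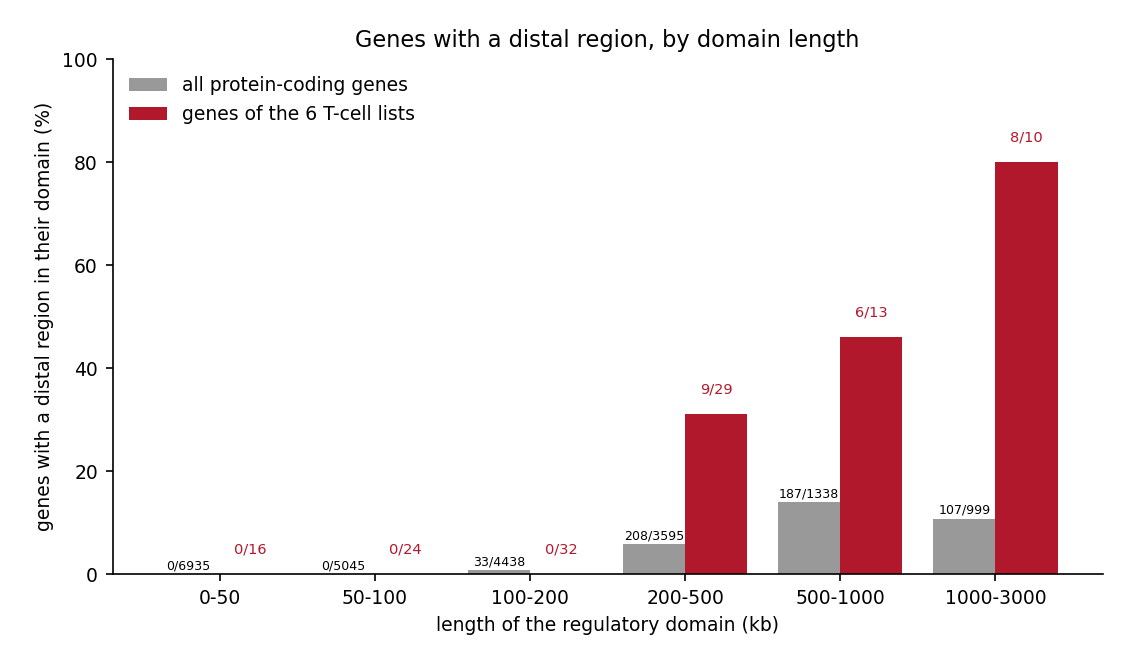
Percent of genes with at least 1 distal region in their domain, by length of the domain in kb, for all 22350 protein-coding genes (grey bars) and for genes of the 6 T-cell lists (red bars), with the number of genes over each bar. In the 3 classes above 200 kb the red bars stand for 9 of 29, 6 of 13 and 8 of 10 genes, and the grey bars for 5.79%, 14.0% and 10.7%.

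The 23 listed genes with a distal region had 63 regions between them. A RUNX motif was in the centre of 48 (76.2%) and RUNX next to ETS in 23 (36.5%), beside 77.3% and 42.0% over all 445. Their median width was 931 bp and 17 were in introns.

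Among transcription factors, Lef1, a partner of Tcf7 in naive and memory T cells, had 6 distal regions around its TSS at position 130813389 of chromosome 3. There were 4 upstream at 178, 173, 163 and 96.1 kb, and 2 in its own introns at 80.4 and 98.3 kb. The 3 farthest upstream held 2, 2 and 1 RUNX motifs, whereas the other 3 held none in their central 200 bp and 1 ETS motif each. The widths ran from 552 to 1056 bp.

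Ets1 encodes an ETS factor of resting T cells, and all of its 6 regions were downstream of the gene. They lay 179, 275, 290, 292, 372 and 425 kb from its TSS at position 32443806 of chromosome 9, and were 841 to 1225 bp wide. A RUNX motif was present in all 6, and an ETS motif within 50 bp of it in the 2 farthest. No other protein-coding gene had these 6 regions in its domain.

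Foxo1, a factor that keeps naive T cells quiescent, had 5 regions downstream of its TSS at 75.4, 128, 191, 231 and 287 kb. The first lay in its intron and under an H3K4me1 region of 9002 bp, and the second under one of 13118 bp. RUNX motifs numbered 3, 1, 0, 3 and 2 in that order. The region without one was also the narrowest, at 444 bp.

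Tox, a nuclear factor of thymocyte selection and of exhausted T cells, had 3 regions in its introns. Its remaining region was 373 kb upstream and had 2 ETS motifs but no RUNX motif. These 4 were among the 10 distal regions of chromosome 4.

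Other factors had fewer or more remote regions. Satb1, a chromatin organiser of T cells, had 4, the farthest 759 kb upstream, and Id2, an inhibitor of E-proteins, had 3 at 335 to 863 kb upstream. Foxp1, another quiescence factor, had 3 upstream at 123 to 167 kb, in what this annotation gives as introns of Eif4e3 (an annotation with a longer Foxp1 could place them inside it), the nearest under 17054 bp of H3K4me1. Bcl6, Ikzf2, Nfatc1 and Runx1, the gene of a second RUNX protein, had 2 each, and Eomes, Nr4a3 and Rora had 1.

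Among cytokine receptors, Tgfbr2, the type II receptor for TGF-beta, had 6 distal regions. One lay in its intron 51.9 kb downstream of the TSS and 5 formed the upstream group at 154, 163, 191, 194 and 209 kb. The 5 upstream regions were in the domain of Tgfbr2 alone. RUNX motifs were in 4 of the 6 and ETS motifs in all 6, with the pair within 50 bp in 2.

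Il6st, which encodes the signalling chain gp130 of the interleukin 6 receptor, had 3 regions clustered 50.2 to 57.0 kb upstream, close to the limit, of which 2 had 2 RUNX motifs. Il7r, the interleukin 7 receptor needed by naive and memory T cells, had 1 at 51.2 kb in an intron of Spef2, and Ifngr1, a chain of the interferon gamma receptor, had 1 at 85.7 kb. Both had a RUNX motif and neither had an ETS motif in its centre.

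S1pr1, the receptor that lets T cells leave lymphoid organs, had 3 regions upstream at 84.5, 86.3 and 101 kb, 1082 to 1431 bp wide and under H3K4me1 regions of 9148 and 8364 bp. The nearest 2 had no central RUNX motif and the third had 2. Itgb1, the beta 1 integrin chain, had 1 region 204 kb upstream, in an intron of the neighbouring gene Nrp1, with RUNX next to ETS.

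Themis, a regulator of T-cell receptor signalling in thymocytes, had 2 upstream at 74.3 and 152 kb, both in introns of Ptprk, the farther with RUNX next to ETS. Ifng, the effector cytokine of CD8-TC, had 3 regions downstream at 159, 272 and 325 kb, all with a RUNX motif, in order 1, 1 and 2. Fasl, a death ligand of cytotoxic cells, had 1 at 117 kb with RUNX next to ETS.

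**Figure D5:**
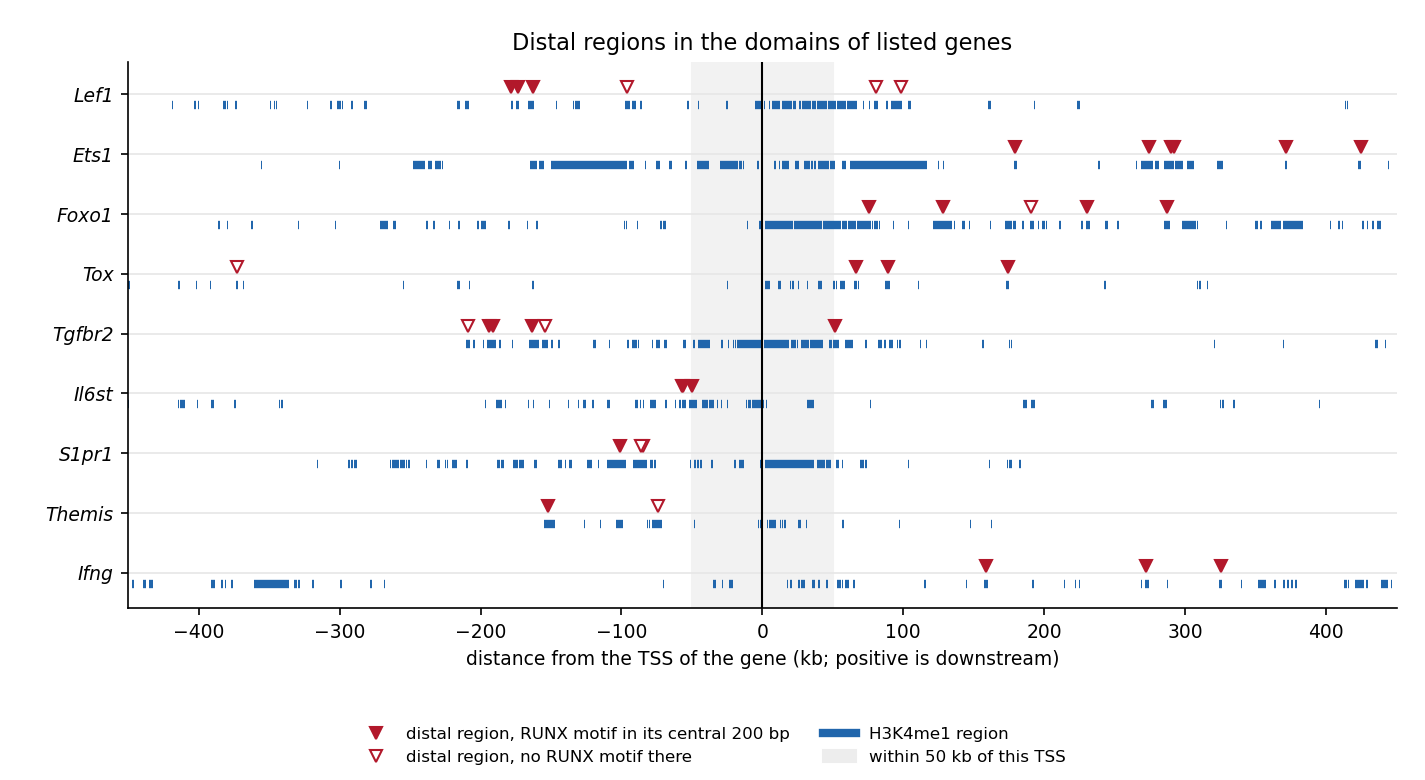
Distal regions (triangles, filled where the central 200 bp held a RUNX motif) and H3K4me1 regions (blue bars) against the distance in kb from the TSS of each gene, positive downstream, for 9 genes of the lists with 2 or more distal regions. Shading marks 50 kb either side of the TSS. All 6 regions of Ets1 and all 3 of Ifng are filled and lie downstream, and 5 of the 6 of Tgfbr2 lie upstream.

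The promoters nearest to the distal regions were often marked. The nearest protein-coding TSS had H3K4me1 within 1 kb for 326 distal regions or 73.3%, for 77.8% of nearer regions and 26.5% of unmarked ones, and 55.5% of all protein-coding genes had it. Runx3 was bound within 1 kb of that TSS for 28 distal regions or 6.29%, for 8.67% of nearer and 1.25% of unmarked regions, beside 4.15% of all genes. Regions that share a nearest gene are counted more than once here, and no test was made.

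The H3K4me1 list was checked against marker genes of the cells a spleen preparation can hold. All 10 T-cell genes had H3K4me1 within 5 kb of the gene, covering a median of 45.0% of it (34.9 to 94.0%). All 6 B-cell genes had it too, with a median of 43.8% (20.9 to 83.5%). Of the myeloid genes 4 of 5 matched had it, with 13.1%, and of 4 erythroid genes 2, with 1.74%. Runx3-bound regions lay within 5 kb of 7 of the T-cell genes, 3 of the B-cell genes, 1 of the myeloid genes and 0 of the erythroid genes. The labels describe the cells as highly pure CD8+ cells, and H3K4me1 at these markers did not separate T cells from B cells. The part of other cells in the lists was not tested.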

How the data were processed

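Per the labels and the study's methods, reads of 40 to 42 bp from fragments of about 300 bp were aligned to mm9 with ELAND, and the submitters' processing notes name CASAVA 1.6 and 1.7. The authors joined the repeats, kept unique reads, scaled the larger read set to the smaller and called regions with MACS against non-immune serum. The deposited lists hold chromosome, start and end only: no score, p-value, read count or control track was used here. Distances came from GENCODE vM1 and sequences from the NCBIM37 genome, both of the build of the lists.

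Fisher's exact test, two-sided, was used for shares of windows with a motif, and p-values were adjusted by Benjamini-Hochberg over the families, words or subsets (Python 3.11.15, scipy 1.17.1). A single flanking window with under 100 known bases was left out. Domains followed the defaults of GREAT, with a basal stretch of 5 kb before and 1 kb after the TSS, extended by up to 1 Mb. The functions were tested on simulated regions and sequences with known answers. Named were the 5 widest, the 5 farthest and the 5 most RUNX-rich regions, the 5 genes with most regions (ties by shorter domain), up to 4 genes per list with 2 or more, the 3 regions on either side of the limit and the 3 largest groups. Other list genes are named to account for the list. The sequence and motifs of 1 named gene's nearest region are not reported here. The regions, lists and motifs were chosen with earlier results of these data known. Absence from a list may mean a signal below the calling threshold.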

Additional observations from a re-analysis of the deposited data

How the results depend on the processing

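The lists hold called regions without scores or depth, so the calling threshold could not be varied and no repeat could be left out. No paired analysis was possible because the repeats were joined before regions were called. Of 157 values under alternatives, 128 kept their direction and their side of the threshold (for a count, stayed within 1.5 times), 19 changed direction and 10 moved; the odds ratios of RUNX against flanks and unmarked regions, and of RUNX next to ETS against flanks, were among the former under every alternative run.

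All 19 changes of direction were odds ratios that did not pass in either setting, between 0.889 and 1.41 in the setting used and between 0.863 and 1.28 under the alternative. Against marked regions 5 to 50 kb from a TSS, these were 0.924 for RUNX and 0.967 for RUNX next to ETS in 400 bp, 0.969, 0.914 and, for TGTGGC, 0.958 with a limit of 100 kb, 0.946 for RUNX next to ETS and 1.04 for TGCGGT at 40 to 60% GC, 1.06 for TGTGGT and 1.01 for TGCGGT with protein-coding TSSs, 1.01 for TGTGGT with the midpoint marked, and 1.05 for TGCGGT with distances from the edge. Within the distal regions, windows of 100 bp gave 0.992 (RUNX) and 0.906 (RUNX next to ETS) for wide H3K4me1. Windows of 400 bp gave 0.896 and 0.873 for wide H3K4me1, 0.869 and 0.863 for wide regions, 1.28 for RUNX beyond 100 kb and 1.15 for RUNX next to ETS with a marked midpoint. These subset alternatives, and those of the words of 6 bases, were chosen after seeing the data.

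Families called against flanks fell from 6 to 3 with 1 region per group, and against unmarked regions from 5 to 3 at 40 to 60% GC, where GATA and SP/KLF no longer passed. Words of 6 bases called fell from 200 against flanks to 112 in 100 bp and 91 at 40 to 60% GC, and from 788 against unmarked regions to 429 and 18. Distal regions numbered 749 with protein-coding TSSs only and 171 with a limit of 100 kb. Genes with a distal region numbered 306 by the nearest protein-coding TSS and 869 with regions chosen by protein-coding TSSs. The cause of these changes was not tested beyond what each alternative changes by construction.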

Other observations

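Some values belong to no comparison above. A single distal region lay in the domain of no protein-coding gene, and 42 lay in the domain of 1. The largest number of RUNX motifs in a whole distal region was 10, and the median was 3, as in the regions 5 to 50 kb from a TSS, where the largest number was 32. The ratio of central to outer RUNX density was 4.01 in distal regions, 3.62 in the nearer ones and 1.44 in unmarked ones. Ankrd55, a gene without a clear role in CD8-TC, had 6 distal regions in its domain, of which 3 were those upstream of Il6st.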
